A study of Rattus norvegicus with 16 samples.

Results

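Small nucleolar RNA (snoRNA) genes were the nearest annotated genes of 18 of the 848 consensus regions of the transcription factor SRF (serum response factor), as found by sequencing of immunoprecipitated chromatin (ChIP-seq) from rat oligodendrocyte precursor cells (OPC) and oligodendrocytes (OL). The members are all consensus regions whose nearest transcription start site (TSS) belongs to a gene of the type snoRNA or scaRNA (the related small RNAs of Cajal bodies) at 10000 bp or less, with no overlap with a peak of an IgG control library. The deposited annotation held 19 such rows of type snoRNA and 0 of type scaRNA, of which 18 were near enough and 0 overlapped an IgG peak. They lie next to 12 snoRNA genes and span 5015 bp in all. The rule used the deposited regions, so the members were chosen by peak calls, that is by read enrichment in these libraries, and SNORA76, SNORD81, SNORA24 and SNORD14 had been picked with their read counts known. The farthest member, near SNORA43, lay 4459 bp from its TSS, and the 1 region left out for distance, near snoU109, lay 12075 bp away with 11, 15, 9 and 19 reads in the OPC libraries and 11, 2 and 3 in the OL libraries.

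The cells were wild-type primary rat cultures from brain, isolated as OPC by immunopanning, that is by binding to dishes coated with antibodies. They grew in proliferation medium for 6 days, after which some plates of each preparation were fixed as OPC and the others on day 3 of differentiation as OL. SRF was immunoprecipitated from 4 OPC preparations (replicates 1 to 4) and 3 OL preparations (replicates 1, 2 and 4), with 1 IgG control per stage and 7 inputs. Replicates were independent preparations, and no treatment or allele distinguished the groups beyond the stage. The markers of OPC, oligodendrocytes, neurons, astrocytes and microglia that were listed had a consensus region in 0 of 22 cases, and a binding assay does not measure their expression, so the stage could not be checked against markers.

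Depth ran from 9054483 to 20303444 tags in the OPC libraries. OL replicate 1 had 12103611 tags, and OL replicates 2 and 4 had only 2394854 and 3363937. All 848 regions together held 1158 to 3785 RPM (reads scaled to the tag total of the library) in OPC, with OPC replicate 4 the highest, and 1867 to 2165 in OL. The fragment length estimated by the peak caller was 296 bp in OL replicate 2 and 298 bp in the IgG library of OL, against 71 to 86 bp in the others. OPC replicate 4, with the fewest tags of the OPC libraries, had the most peaks (714, against 232 to 432 in the other OPC libraries), and it stands apart in what follows.

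SnoRNAs guide the chemical modification of ribosomal RNA in the nucleolus. Box C/D snoRNAs (names beginning with SNORD, and U3) pair with the site of 2′-O-methylation or act in the processing of the rRNA precursor, and box H/ACA snoRNAs (SNORA) guide pseudouridylation. In mammals most are cut out of introns of host genes, many of which encode ribosomal or translation proteins or belong to the class of transcripts with a 5′ terminal oligopyrimidine tract, so a snoRNA is commonly made from the promoter of its host. SRF binds the CArG box and, together with MRTF or ternary complex factors, activates cytoskeletal and immediate early genes.

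The files name the nearest snoRNA gene of each region but not its host, so the regions are called here snoRNA gene regions. In the RefSeq gene table of the newer assembly GRCr8, used for names and gene order only, 6 of the 12 snoRNA genes had a counterpart of that name on the same chromosome (Snord14a for SNORD14). Snord14a lay within Hspa8, which encodes a constitutive heat shock chaperone, and Snord81 within Gas5, a long noncoding RNA known as a carrier of many snoRNAs (9 snoRNA genes in that table). Snora65 lay within Rpl12, a ribosomal protein gene, Snord65 within Trpv2, an ion channel gene, Snord60 within LOC102551976, and Snord87 within LOC102556004 and Mcmdc2. The RefSeq promoters of Gas5 and Hspa8 are shown because these genes contain the snoRNAs of 5 of the 18 regions. Both were also among the listed host genes that were not the nearest gene of any consensus region. A region nearer to the TSS of a snoRNA is assigned to the snoRNA and not to its host. The count therefore does not show that the hosts lack SRF signal. Each line gives 250 bases before the annotated gene start in lower case and the first 20 bases from the start in capitals, 5′ to 3′ on the plus strand of GRCr8 (Gas5 chr13:75836713-75836982, Hspa8 chr8:50080264-50080533).
Gas5: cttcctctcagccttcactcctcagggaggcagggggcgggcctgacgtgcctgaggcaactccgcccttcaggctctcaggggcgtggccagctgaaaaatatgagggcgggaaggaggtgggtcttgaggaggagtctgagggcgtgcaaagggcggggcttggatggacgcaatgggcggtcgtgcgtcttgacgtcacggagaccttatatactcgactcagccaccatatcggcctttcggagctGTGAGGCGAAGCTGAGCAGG
Hspa8: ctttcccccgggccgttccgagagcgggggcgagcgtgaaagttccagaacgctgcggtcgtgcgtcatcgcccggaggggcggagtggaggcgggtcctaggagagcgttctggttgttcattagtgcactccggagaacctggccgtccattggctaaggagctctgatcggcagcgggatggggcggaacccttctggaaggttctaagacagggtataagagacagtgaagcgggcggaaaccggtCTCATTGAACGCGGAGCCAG
The CArG box was searched as CCWWWWWWGG, where W is A or T, with no mismatch allowed, so sites that depart from it were not counted. Neither full RefSeq window of 300 bases held this motif on either strand (it reads the same way on both). Those of the other containing genes with a sequence held none either (0 of 5 in all). The motif occurred in 548 of 33469 RefSeq promoters of that length (1.64%). The sequence of the regions themselves was not analysed here, since it needs the genome of the files' build, Rnor_6.0.

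The regions lay downstream of their snoRNA genes. In 17 of 18 the centre of the region was on the downstream side of the snoRNA TSS, at 815 to 4459 bp, and the exception was the region near SNORD87, at -314 bp, upstream. Of all 848 regions, 34.1% had the nearest TSS on their upstream side, and of the regions near small nuclear RNA (snRNA) genes 96.9% did. There were 5 regions at a transcript end (within the window the authors' annotation calls TTS), 5 in introns, 4 between genes, 3 in exons and 1 in a promoter. Over all regions 54.7% were in promoters and 5.19% at transcript ends. Of the members, 6 were on chromosome 10, namely both regions near SNORA76, both near ACEA_U3 (a U3 snoRNA gene by its name), and those near SNORD60 and SNORD65.

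**Figure D1:**
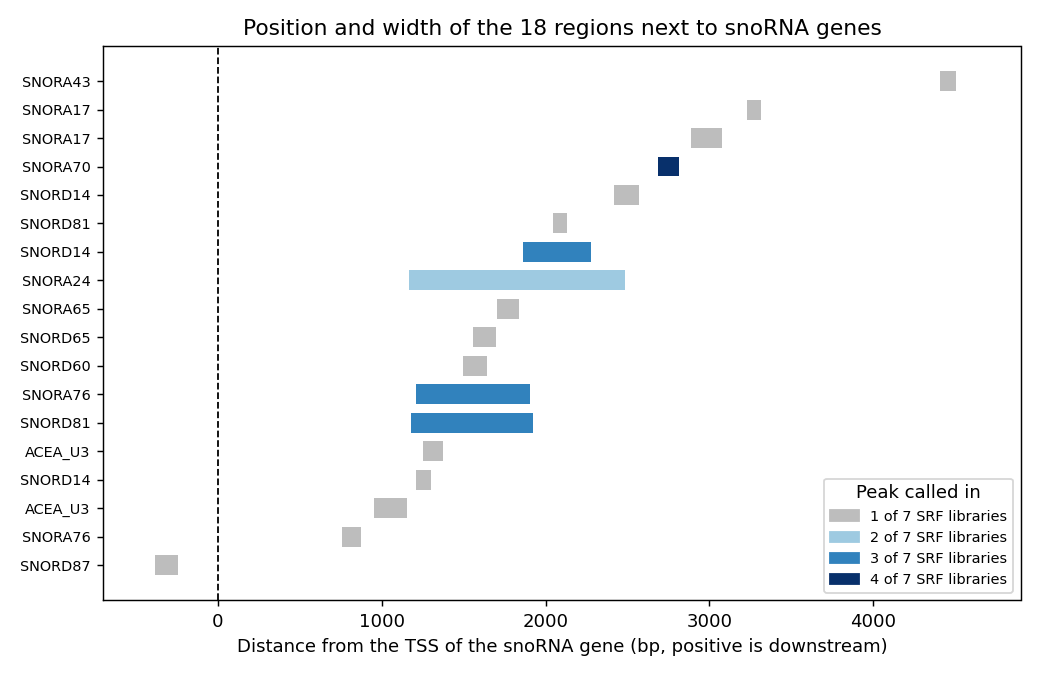
Position of the 18 regions relative to the TSS of the nearest snoRNA gene, in bp on the horizontal axis, 1 bar per region with its width to scale, shaded by the number of SRF libraries in which a peak overlapped it. All but the region near SNORD87 are downstream, and the region near SNORA24 is the widest at 1319 bp.

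Several regions came in groups. SNORD14 had 3 regions, SNORA76, SNORD81, SNORA17 and ACEA_U3 had 2 each, and 7 snoRNA genes had 1. The gaps between neighbouring regions of the same gene were 97 to 564 bp, and these regions are not independent of each other. No other consensus region lay within 20 kb of a member. The median width was 142.5 bp, against 170 bp over all regions, but 3 of the 18 (near SNORA24, SNORD81 and SNORA76) reached 500 bp or more, against 4.72% of all regions and 18.8% of the snRNA gene regions. The region near SNORA24 (chr2:227716812-227718130, intron 10 of 10 of an Ensembl gene, 1828 bp downstream) was at 1319 bp the widest of all 848.

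Most of the peak calls came from a single library. All 18 regions overlapped a peak of OPC replicate 4, against 83.8% of all regions. The width of each was that of the OPC replicate 4 peak (399 of the 848 regions share this). No other library called 13 of the 18 (72.2%, against 30.2% of all regions and 40.6% of the snRNA gene regions). OPC replicates 1, 2 and 3 gave calls at 5, 1 and 3 of the regions (27.8%, 5.56% and 16.7%). Of all regions they called 49.8%, 26.3% and 43.4%. In OL only SNORA70 had a call, in replicate 1. Thus 1 of 18 regions was called in an OL library, against 52.4% of all regions and 12.5% of the snRNA gene regions. At least 2 SRF libraries called 5 of 18, against 56.1% of all regions and 46.9% of the snRNA gene regions. The 2 shallow OL libraries called 0 of 18, but they called only 5.54% and 19.5% of all regions. No IgG peak overlapped a member, which the rule required.

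The peaks were of moderate height. In the authors' peak table of OPC replicate 4 the fold enrichment over input at the 18 regions ran from 5.30 to 14.4 with a median of 6.94, against 9.42 for all its peaks, and the pileup signal from 7 to 19 reads. The highest was that at SNORA70 (14.4), followed by SNORA24 (12.998) and SNORD81 (11.5). The 4 summits at SNORA70, from OPC replicates 1, 3 and 4 and OL replicate 1, fell within 12 bp of each other. At SNORA24, SNORD81, SNORA76 and SNORD14 the summits of the strongest peak per library were 119, 136, 171 and 292 bp apart, in regions of 1319, 750, 698 and 413 bp, while that of SNORA70 is 128 bp wide and leaves less room for a spread.

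**Figure D2:**
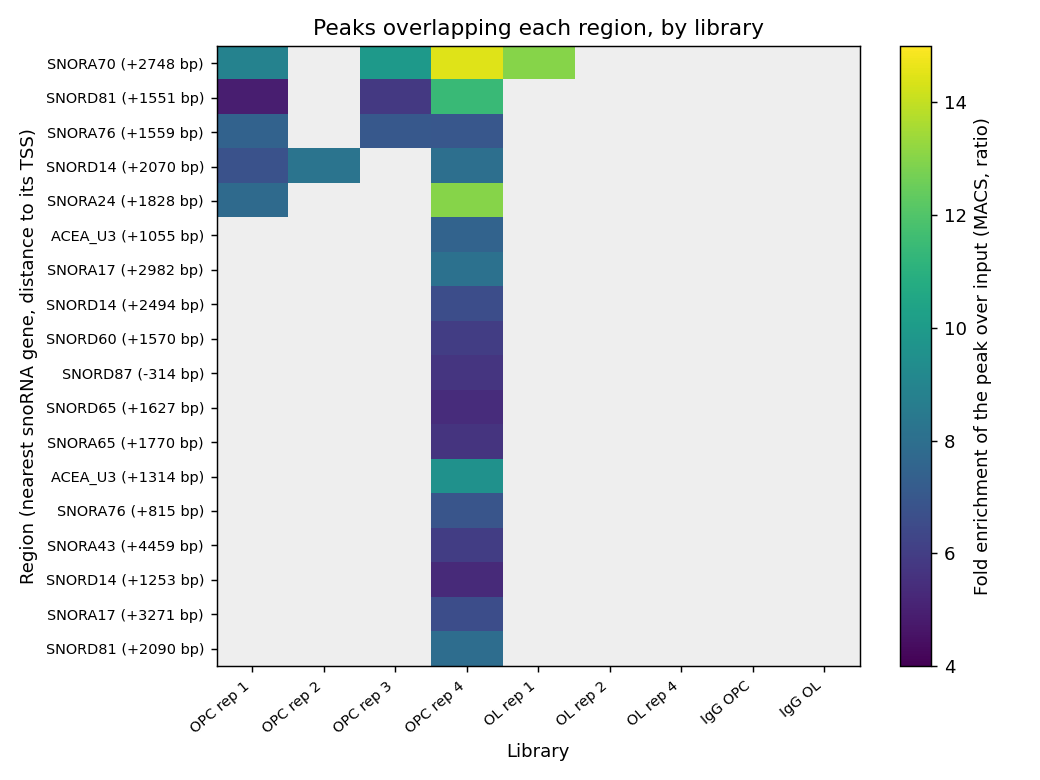
Fold enrichment over input (the authors' ratio, colour scale) of the strongest peak overlapping each of the 18 regions (rows, with the distance to the snoRNA TSS in bp) in the 7 SRF and 2 IgG libraries (columns). Grey cells have no peak, OPC replicate 4 has a peak in every row, and OL replicate 1 has 1, near SNORA70, with a fold enrichment of 13.02.

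The comparison of OL with OPC describes the SRF signal at these regions in each stage. Every member had a peak in OPC replicate 4, and SNORA76, SNORD81, SNORA24 and SNORD14 were picked with their read counts known. The adjusted p-values at members therefore describe them and are no independent test of a stage difference. Of the 18 regions, 5 had at least 10 reads in at least 3 SRF libraries and entered the fit with 552 other regions (557 in all), and 13 did not. The tested region near SNORA76 passed this filter through its OPC libraries alone, with 8, 1 and 4 reads in OL. Signal near SNORA76, SNORD81 and SNORA24 was lower in OL past the threshold of 0.05 for the adjusted p, that near SNORD14 and SNORA70 did not pass, and 0 were higher past it. Over all tested regions 10 (1.8%) were lower and 12 (2.15%) passed in either direction. These calls rest on the fit without the preparation as a block: with the replicate number as a block, 0 of the 557 regions (0%) passed. Without OPC replicate 4, the region near SNORA76 was the only one of 498 lower past the threshold (0.201%). In a bulk immunoprecipitation, signal in fewer cells and less signal per cell cannot be told apart.

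Near SNORA76 (H/ACA class; chr10:94698114-94698811, the last exon, 12 of 12, of an Ensembl gene, 1559 bp downstream of the snoRNA TSS), OPC replicates 1 to 4 held 37.9, 32.6, 33.9 and 41.0 normalised reads, that is reads scaled for the composition of the regions in each library. OL replicates 1, 2 and 4 held 6.42, 6.08 and 13.8. Every OL library was below every OPC library, by a wide margin. The means were 36.3 ± 3.83 (SD, n = 4) and 8.77 ± 4.36 (SD, n = 3), and the fitted log2 fold change, which need not equal the ratio of these means, was -2.20 ± 0.31 (edgeR SE, adjusted p = 0.0139). The OL values rest on 8, 1 and 4 reads, and with the replicate block the edgeR adjusted p was 0.0774. Without OPC replicate 4 the call held (edgeR adjusted p = 0.0331).

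Near SNORD81 (C/D class, a guide for methylation of the large-subunit rRNA in human; chr13:78856789-78857538, at a transcript end, 1551 bp downstream), the OPC libraries held 33.3, 38.0, 33.9 and 45.4 normalised reads and the OL libraries 13.6, 12.2 and 6.90. The groups did not overlap, and all OL values were low. The means were 37.7 ± 5.60 (SD, n = 4) and 10.9 ± 3.54 (SD, n = 3), and the fitted log2 fold change was -1.65 ± 0.28 (edgeR SE, adjusted p = 0.0165). With the replicate block the edgeR adjusted p was 0.0774, and without OPC replicate 4 it was 0.0515. The same gene's other region (chr13:78857659-78857745, 87 bp wide) had 6, 3, 3 and 12 reads in OPC and 1, 0 and 1 in OL, too few for the fit.

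Near SNORA24 (H/ACA class, a guide for pseudouridylation of the small-subunit rRNA in human), the OPC libraries held 71.2, 58.0, 46.4 and 76.3 normalised reads and the OL libraries 20.1, 18.2 and 38.0. The highest OL library, replicate 4, came near the lowest OPC library, replicate 3, without overlap. The means were 63.0 ± 13.5 (SD, n = 4) and 25.4 ± 10.9 (SD, n = 3), and the fitted log2 fold change was -1.39 ± 0.29 (edgeR SE, adjusted p = 0.0368). With the replicate block the edgeR adjusted p was 0.0774, and without OPC replicate 4 it was 0.0738. It also failed to pass without OPC replicates 1 or 2 or OL replicates 1 or 2 (edgeR adjusted p = 0.0886 to 0.135 for the last pair). This call was the least stable of the 3: it passed in 6 of 15 alternatives, against 10 for SNORD81 and 12 for SNORA76.

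Near SNORD14 (C/D class, a snoRNA needed for processing of the small-subunit rRNA in yeast), the widest of the 3 regions (chr8:44994660-44995072, between genes, 2070 bp downstream) held 25.5, 33.5, 19.6 and 24.1 normalised reads in OPC and 12.8, 12.2 and 13.8 in OL. All OL libraries were below all OPC libraries and close to each other, although 2 of them rest on 2 and 4 reads. The means were 25.7 ± 5.78 (SD, n = 4) and 12.9 ± 0.825 (SD, n = 3), and the fitted log2 fold change was -0.98 ± 0.30 (edgeR SE, adjusted p = 0.106), not past the threshold. The region at 2494 bp (chr8:44995216-44995365) had 11, 6, 9 and 15 reads in OPC and 3, 0 and 0 in OL. The region at 1253 bp (chr8:44994004-44994095, a transcript end) had 4, 5, 4 and 10 reads in OPC and 0 in each OL library. The pooled OPC rate of 0.430 RPM at that region was 2.56 times the limit of 3 reads over the pooled OL tags (0.168 RPM). Without OPC replicate 4 the ratio was 1.74. These ratios leave out the counting error of the OPC reads and the variation between libraries. The region is also a member only through its peak in OPC replicate 4.

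SNORA70 (H/ACA class; chr4:165619314-165619441, intron 5 of 9 of an Ensembl gene, 2748 bp downstream) went the other way. The OPC libraries held 12.4, 4.53, 22.3 and 11.2 normalised reads and the OL libraries 24.9, 66.9 and 13.8. The groups overlapped, since OL replicate 4 was below OPC replicate 3, and the highest value, in OL replicate 2, rests on 11 reads. The means were 12.6 ± 7.33 (SD, n = 4) and 35.2 ± 28.01 (SD, n = 3), and the fitted log2 fold change was 1.17 ± 0.51 (edgeR SE, adjusted p = 0.208), not past the threshold in any of 15 alternatives. Its OL replicate 1 peak had a pileup of 31 reads and a −log10 q of 25.4 in the authors' table.

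**Figure D3:**
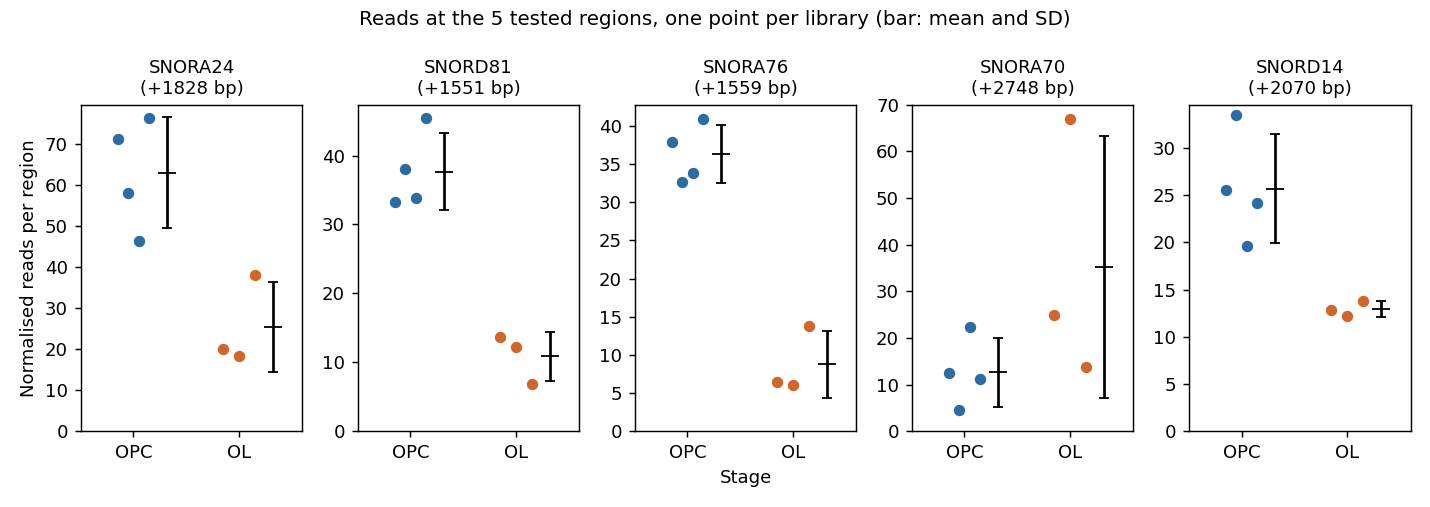
Normalised reads (vertical axis, each panel on its own scale from 0) at the 5 tested regions in 4 OPC and 3 OL libraries, 1 point per library, with the mean and SD as a bar. The OL points lie below all OPC points near SNORA24, SNORD81, SNORA76 and SNORD14 and overlap them near SNORA70.

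The median log2 fold change of the 5 tested members was -1.39, against -0.01 over all 557 tested regions. It was -0.79 over the 21 tested regions near snRNA genes, -0.05 over tested protein-coding promoters and -0.21 over tested regions called in OPC replicate 4 alone. Of these 5, 4 had every OL library below every OPC library, against 13.5% of tested regions. The filter on reads lets a region pass through its OPC libraries alone, so these counts over the tested members describe them and do not stand for all 18. Of all 18, 7 had every OL library below every OPC library, against 13.2% of all 848 regions. With no filter on reads 17 of 18 had a negative log2 fold change, against 55.7% of all regions. Of the 18, 3 passed, against 1.65% of all regions lower past the threshold. The choice of members shapes these counts over all 18 as well. Each of the 18 had a peak in OPC replicate 4 and only 1 had a peak in OL, against 52.4% of all regions. The counts describe the members and are no test of a stage difference.

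**Figure D4:**
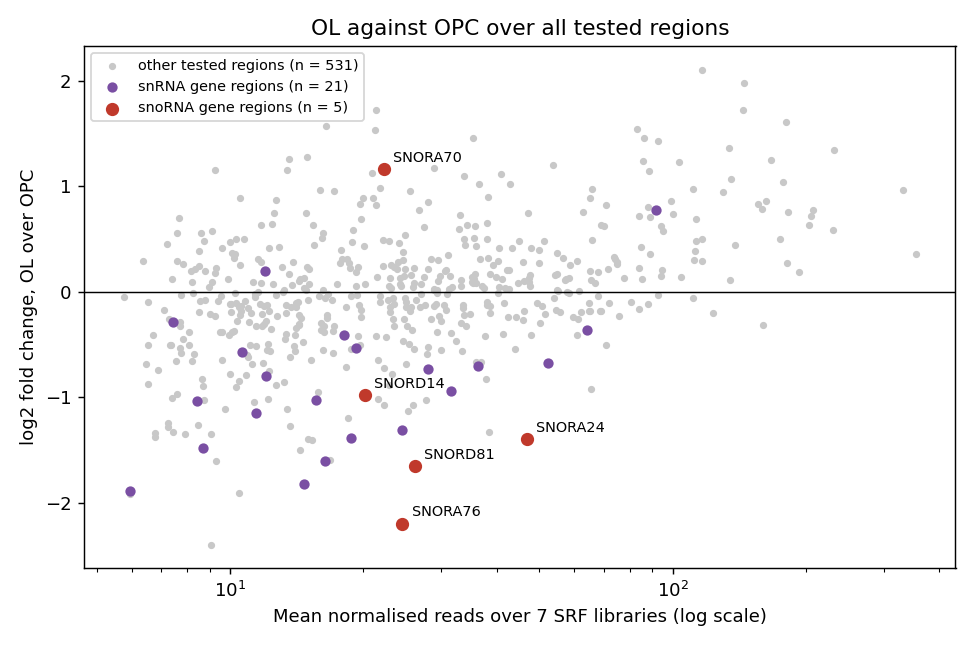
Log2 fold change of OL over OPC (vertical axis) against mean normalised reads over the 7 SRF libraries (log scale) for the 557 tested regions, with the 21 snRNA gene regions and the 5 snoRNA gene regions in colour. The snoRNA gene regions near SNORA76, SNORD81, SNORA24 and SNORD14 lie below 0 and the one near SNORA70 above, while the median over all regions is -0.01.

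Of the 13 regions with too few reads for the fit, all were called in OPC replicate 4 alone, and that library's RPM value was 2.53 to 6.81 times the mean of the other OPC libraries. The same ratio was 2.16 for the summed reads of all regions and 2.77 for those of all regions called in OPC replicate 4 alone. In normalised reads the 13 ratios were 1.09 to 2.67. Near ACEA_U3 the region at 1055 bp (chr10:74766340-74766541) held 14, 7, 9 and 22 reads in OPC and 4, 1 and 0 in OL, and that at 1314 bp (chr10:74766639-74766760) held 5, 11, 4 and 17 against 4, 1 and 1. U3 is the box C/D snoRNA that acts in the first cleavages of the rRNA precursor. The region near SNORD65 (chr10:48930724-48930862, exon 3 of 3) held 12, 8, 4 and 13 reads in OPC and 2, 1 and 2 in OL. Near SNORD60 (chr10:13895142-13895290, intron 6 of 8) there were 5, 5, 7 and 17 against 1, 0 and 2. OPC replicate 4 had the most reads in each of these, whereas in normalised reads OPC replicate 1 was highest near SNORD65 and OPC replicate 2 at the second ACEA_U3 region.

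Other regions were at a similar level. Near SNORA17 the wider region (chr3:4089833-4090021, exon 3 of 5) held 5, 6, 3 and 19 reads in OPC and 3, 0 and 1 in OL, and near SNORA65 (chr3:12012813-12012947, between genes) there were 6, 5, 2 and 13 against 3, 0 and 2. Near SNORA43 (chr8:118192389-118192484, between genes) the OPC libraries held 7, 4, 6 and 14 reads and the OL libraries 7, 0 and 1. The OPC and OL replicates 1, of like depth, were equal there. Near SNORA76 the narrower region (chr10:94697662-94697774) held 4, 3, 5 and 11 reads against 1, 1 and 0. The remaining regions, the second of SNORA17 and that of SNORD87, held 1 to 13 reads in OPC and 0 to 5 in OL. At these counts a difference between stages was not detectable region by region.

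Because the depth of 2 OL libraries was low, OL replicate 1 (12103611 tags) was set beside the OPC libraries of like depth, replicates 1 and 3 (12401853 and 11713315 tags). Compared with OPC replicate 1, OL replicate 1 held fewer reads in 15 of the 18 regions, more in 2 (SNORA70 and the second region of SNORA17) and equally many in 1. The share with fewer reads was 83.3%, against 50.7% of all regions, 58.2% of all regions called in OPC replicate 4 alone and 84.4% of the snRNA gene regions. Compared with OPC replicate 3, OL replicate 1 held fewer reads in 12 of the 18 regions (66.7%, against 39.6% of all regions, 50.8% of those called in OPC replicate 4 alone and 78.1% of the snRNA gene regions). It held more in 4 (near SNORA70, SNORA65 and SNORA43 and at the second region of SNORA17) and equally many in 2. Among the 13 members called in OPC replicate 4 alone, fewer reads were found in 11 against OPC replicate 1 and in 8 against OPC replicate 3. Both comparisons use the same OL library, so OL has no replicate here.

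Summed over all 18 regions, the members took 1.21%, 1.09%, 1.03% and 1.58% of the reads in all consensus regions in the OPC libraries and 0.508%, 0.537% and 0.4996% in the OL libraries. All OL libraries were below all OPC libraries. The OL values were close together but rest on 133, 24 and 36 reads, so their SD may understate the uncertainty. The means were 1.23 ± 0.246% (SD, n = 4) and 0.515 ± 0.0195% (SD, n = 3), a difference of -0.712 percentage points, and -0.595 without OPC replicate 4. As RPM the same sums were 25.6, 12.7, 20.2 and 59.7 in OPC and 10.99, 10.02 and 10.70 in OL, so on that scale OPC replicate 2 was close to the OL libraries. The difference of the means was -19.0 RPM, and -8.94 without OPC replicate 4. The 13 members called in OPC replicate 4 alone took 0.32%, 0.31%, 0.27% and 0.55% in the OPC libraries and 0.14%, 0.11% and 0.15% in the OL libraries. Most of the sum thus lay in the 5 other members, among them the tested ones near SNORA24, SNORD81, SNORA76 and SNORD14. The snRNA gene regions took 3.13 ± 0.238% in OPC and 1.88 ± 0.139% in OL. None of these sums was tested, since the regions were chosen with results known.

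**Figure D5:**
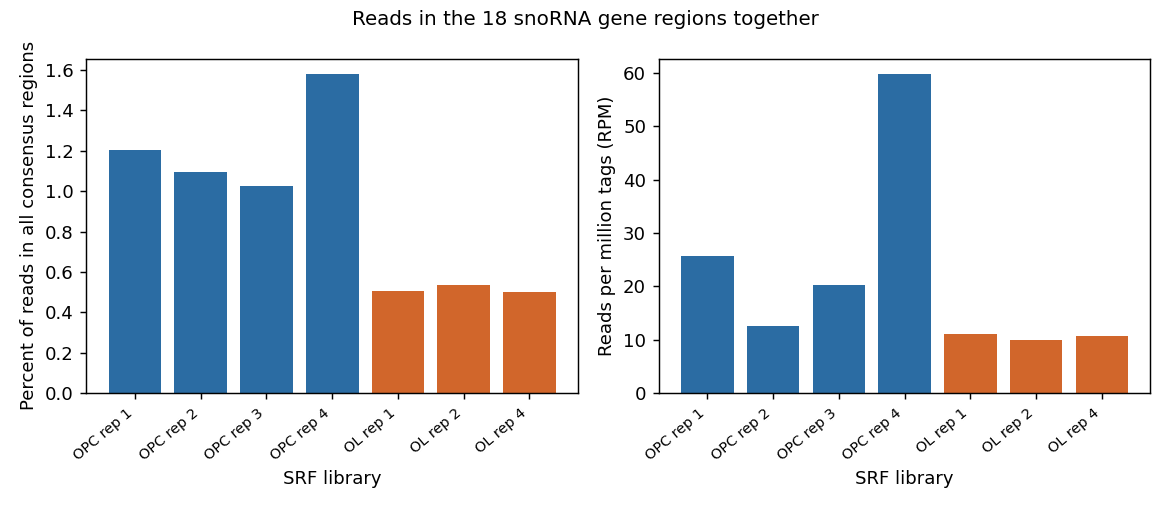
Reads in the 18 regions together in each of the 7 SRF libraries, as a percentage of the reads in all 848 regions (left) and as RPM (right), 1 bar per library. On the left the 3 OL libraries lie at 0.4996% to 0.537% and the OPC libraries at 1.03% to 1.58%; on the right OPC replicate 2 (12.7) is close to the OL libraries.

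Per length, the 4 tested regions with lower values in OL were much alike in OPC. The width of each member was that of its OPC replicate 4 peak, so the peak calling shapes the reads per kb in OPC. SNORA24, SNORD81, SNORA76 and SNORD14 held 47.7 ± 10.2, 50.2 ± 7.47, 52.1 ± 5.48 and 62.2 ± 14.0 normalised reads per kb in OPC (SD, n = 4). These neighbours in the order did not differ beyond their spread. In OL the same regions held 19.3 ± 8.26, 14.5 ± 4.72, 12.6 ± 6.25 and 31.3 ± 2.00 reads per kb (SD, n = 3). SNORA70 was at 98.5 ± 57.2 in OPC and 275 ± 219 in OL, and the untested regions had means of 28.9 to 57.9 in OPC and 0 to 38.7 in OL. A read counts once 0.2 of it overlaps, which raises the value per kb of regions near the read length of 75 bp.

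Across the 7 libraries the log2 normalised reads of SNORA24, SNORD81, SNORA76 and SNORD14 moved together, with Pearson correlations of 0.75 to 0.97, and SNORA70 ran against them at -0.51 to -0.83. With 7 libraries in 2 stages these values are descriptions that share the stage difference. Among 301 tested regions outside the members with at least 20 mean normalised reads, those most like SNORA76 were at the transcript end near Fam53c (r = 0.996) and near Cacng7 (r = 0.971). Those most like SNORD81 were at Rbl2 (0.963) and RGD1311783 (0.961), for SNORA24 Fam53c (0.976) and Zfp949 (0.935), and for SNORD14 LOC100911959 (0.912) and Ap2s1 (0.893).

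Few of the listed genes of the snoRNA machinery and of the known hosts were the nearest gene of a consensus region. Of all protein-coding symbols in the RefSeq table, 583 of 23148 (2.52%) were. The box C/D snoRNP protein list, with the methyltransferase gene Fbl, had 0 of 5 listed names with a region. The H/ACA list, with the pseudouridine synthase gene Dkc1, had 0 of 4. Of 13 genes listed under assembly and transport only Nop14, a factor of small-subunit rRNA processing, had one, in its promoter (chr14:81339884-81340154, called in 6 libraries). It held 40.3, 33.5, 41.0 and 41.0 normalised reads in OPC and 43.3, 24.3 and 55.2 in OL, and the groups overlapped (log2 fold change 0.14 ± 0.21 SE, edgeR adjusted p = 0.784). A region nearer to the TSS of a snoRNA than to that of its host counts here for the snoRNA. Of 65 listed names of known snoRNA host genes 2 had a region. That in the promoter of Rpl23a, a ribosomal protein gene, held means of 15.2 ± 2.80 (SD, n = 4) and 11.7 ± 4.93 (SD, n = 3) in OPC and OL, and the fitted log2 fold change was -0.14 ± 0.31 (edgeR SE, adjusted p = 0.902), and that near Tnpo2, at -2145 bp, had too few reads for the fit.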

How the data were processed

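SRF immunoprecipitates were sequenced as single reads of 75 bp, per the labels' protocols. The build Rnor_6.0 and the tools BWA, Trim Galore, HOMER, deepTools and MACS2 are named in the submitters' processing notes; how duplicate and multiply matching reads were treated before counting is not given in the sources used here. Repeated snoRNA copies can split or collect such reads. Peaks are the authors' own, made library by library with MACS 2.2.7.1, the input serving as control and q-values limited to 0.05, per the file headers; the deposited tables give the pileup signal, the fold enrichment ratio and the −log10 p and q. The deposited counts per consensus region are whole reads, not normalized, assigned by featureCounts 2.0.1 where 0.2 or more of a read overlapped, per the file headers. Positions are those of the deposited HOMER annotation, in Rnor_6.0 counted from 1. Tag totals, taken as depth, stand in the headers of the deposited peak tables.

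A region counted as called where a peak overlapped it by at least 1 bp. The 557 of 848 regions that reached 10 reads in 3 or more SRF libraries were fitted in edgeR 4.0.16 under R 4.3.3. Libraries were scaled by TMM on the region reads, and OL was compared with OPC by the quasi-likelihood test. The edgeR SE is not a direct output. It is the absolute log2 fold change divided by the square root of the F statistic of that test. P-values were adjusted by Benjamini-Hochberg over all 557, at a threshold of 0.05. This scaling takes out any shift that all regions share. RPM are reads scaled to the tag total of the library. The script was tested on simulated data. DESeq2 1.42.0, other scalings and filters, the replicate block and leaving out libraries were alternatives. Per the labels' protocols, the plates of a preparation went to both stages, so equal replicate numbers were taken as pairs. Deviations of same-numbered libraries correlated at 0.085, 0.246 and 0.165 for numbers 1, 2 and 4. Those of differently numbered libraries ran from -0.293 to 0.248, the highest for OPC replicate 4 with OL replicate 1. These values do not settle the pairing. The OL library titled replicate 4 carries the number 3 in the deposited table, so its pairing is less sure. The limit of 3 reads covers counting error only, while the SDs and the edgeR SEs also hold the variation between libraries.

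The members, gene lists and tests were chosen with earlier results of these data known. Named with values are the regions near SNORA76, SNORD81, SNORA24 and SNORD14, regions past the threshold or called in at least 5 libraries, the widest, and the 8 others with the most normalised reads.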

Additional observations from a re-analysis of the deposited data

Results flagged for a closer look

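Among 23 groups of 4 OPC values checked for a library far from the others, 1 was flagged. At the region 2494 bp downstream of SNORD14, OPC replicate 2 held 5.43 normalised reads, while the other 3 OPC libraries held 8.52, 8.03 and 8.42. The value rests on 6 reads, and chance flags about 1 in 20 such groups.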

How the results depend on the processing

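The median log2 fold change of the tested members stayed negative in all 15 alternatives, and so did each of the 4 lower members, while SNORA70 stayed positive. The count of 3 members past the threshold was 0 with the replicate block, 0 with the replicate block in which OL replicate 4 was paired with OPC replicate 3 (an alternative chosen after seeing the data, edgeR adjusted p = 0.11 for SNORA76, SNORD81 and SNORA24) and 0 when scaled to all tags, a scaling that moved the median of all tested regions to -0.35. In each of these 3 fits 0 regions of 557 passed at all, while 50 (8.98%) were lower at an unadjusted p below 0.05 with the block and 57 (10.2%) without it. The count was 1, SNORA76, without both OL libraries of low depth (edgeR adjusted p = 0.038), where OL is 1 library assumed to vary like OPC. Leaving out 1 library at a time gave 1 to 3, with the lowest without OPC replicate 4. SNORA24 did not pass without OPC replicates 1, 2 or 4 or without OL replicates 1 or 2. DESeq2 called 3 members; over all regions it called 14 of 437 lower (3.2%) and 49 in either direction, against 10 and 12 with edgeR. Without a filter on reads, and over regions called in at least 2 SRF libraries with no IgG call, the count stayed 3. Over all regions, 22 passed in either direction without the filter (14 lower), 35 among the called regions (18 lower), and 1 to 31 with 1 library left out (1 to 9 lower). The summed share of reads differed by -19.0 RPM with all tags as the denominator, and by -8.94 RPM without OPC replicate 4 as well (added after seeing the data). A distance limit of 1000 bp left 2 members, neither tested, so it gives no count or median. The low depth of OL replicates 2 and 4, with 0 to 11 reads at every member, limits what can be said of single regions.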
